A study of Mus musculus with 10 samples.

Results

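Mouse embryonic fibroblasts (MEFs) that had met interferon before were set against MEFs that had not, both sampled at 0 h, before interferon-beta was added again. The comparison used 2 of the 10 libraries of the series, the one titled Naïve-0h and the one titled Pretreated-0h, chosen by their labels alone, with 1 library each. Both came from C57BL/6 cells, in which an HA-tagged H3.3 cDNA stands in place of the H3f3b locus, 1 of the genes that encode this histone variant, so the naive control carried the same alteration. The labels state interferon-beta at 100 U per ml, and the sources used here do not say how long the pretreatment lasted, at what dose, or how it was washed out. The other 8 libraries hold the same 2 arms at 1, 2, 4 and 6 h. The study asks whether an earlier interferon exposure changes how cells respond later, and the 0 h pair shows the state from which that later response started.

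Type I interferons bind a receptor (Ifnar1 and Ifnar2) whose kinases Jak1 and Tyk2 phosphorylate factors of the STAT family. With Irf9 these form the factor ISGF3, which binds a DNA element, the interferon-stimulated response element (ISRE), before many antiviral genes. Some of these genes encode parts of the pathway itself, and others, such as Socs1 and Usp18, dampen it.

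Values are RPKM (reads per kilobase of transcript, scaled to the library's total) as the authors deposited them, 1 transcript per gene symbol. Of 23370 symbols, 12168 reached 1 RPKM in at least 2 of the 10 libraries and were compared. A difference is pretreated minus naive on the log2(RPKM + 1) scale, which understates the change of genes of low RPKM, and genes with a difference of 1 or more, a fold of 2, were counted as apart. With 1 library per group no p-value can be given, and no difference at 0 h has a replicate check. The exact 95% intervals given for ratios of RPKM cover counting error only.

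The naive 0 h library held 94.4 M counts over the kept transcripts (M, counts in units of 1e+06) and the pretreated one 129 M, within a range of 83.9 M to 268 M over all 10. The naive 0 h library stood apart in its lowest values. It had 0 counts for 69 of the 12168 genes, against 5 in the pretreated 0 h library and 0 to 7 in the other 8, although the pretreated 2 h library was shallower. In the pretreated arm, the 1 h and 4 h libraries stood apart from the 2 h and 6 h libraries in many of the genes described below. The cells carried fibroblast transcripts in both libraries, with Vim at 2419.7 RPKM in naive cells against 2409.8 RPKM in pretreated cells and Pdgfrb at 119 and 143 RPKM. Most defining markers of other cell types were at or near 0. All 8 lymphocyte markers and 7 of 10 macrophage markers, among them Ptprc and Fcgr1, were under 0.1 RPKM in both libraries, and the macrophage list summed to 2.54 and 3.65 RPKM. Of 6 endothelial markers 4 were under 0.1 RPKM in both, and Tek (1.35 and 1.14 RPKM) and Kdr (0.127 and 0.482 RPKM) were not. Of 6 epithelial markers 4 were under 0.1 RPKM in both, and Cdh1 (2.01 and 2.09 RPKM) and Krt14 (0.573 and 0.202 RPKM) were not. The muscle markers summed to 0.332 and 0.585 RPKM, the neural markers to 4.87 and 3.59 RPKM, and the fat and cartilage markers, mainly Sox9, to 50.3 and 44.2 RPKM.

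Pretreated cells held more of a wide set of interferon-induced transcripts before restimulation, and fewer genes were lower. Of the 12168 genes, 311 (2.56%) were at least 2-fold higher in the pretreated library and 102 (0.838%) at least 2-fold lower. The median difference over all genes was 0.00, and 99% of them lay below 2.10. The upper tail was the longer one. At least 4-fold apart were 131 genes in the higher direction (1.08%) and 5 in the lower, and at least 16-fold apart were 31 and 0. Just inside the limit stood Fam84b, at 0.901 RPKM in naive cells against 2.81 RPKM in pretreated cells, and just outside it Fabp3, at 0.601 and 2.20 RPKM. On the lower side Mgll, at 5.63 and 2.31 RPKM, was just inside and Atp5k, at 33.3 and 16.2 RPKM, just outside. The 311 higher genes made up 1.70% of the summed RPKM of naive cells and 7.73% of that of pretreated cells. The MHC class I light chain B2m alone accounted for 25.3% of this gain, and the ribosomal precursor RNA Rn45s for 21.6%.

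**Figure D1:**
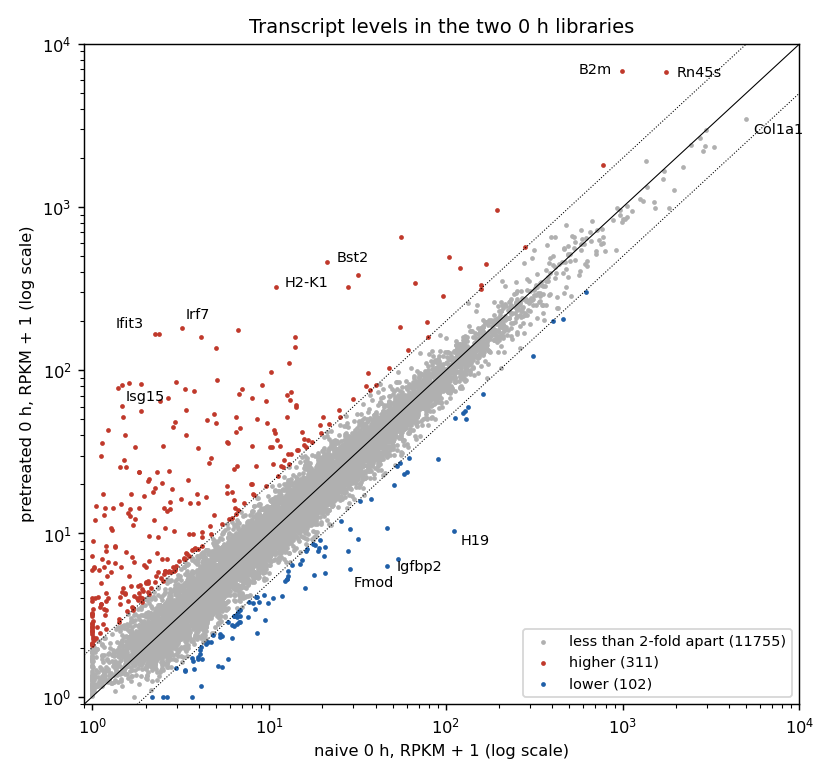
Each point is 1 of 12168 genes, with RPKM + 1 in the naive 0 h library on the x axis and in the pretreated 0 h library on the y axis, both on log scales. The solid line marks equal levels and the dotted lines a fold of 2. The 311 higher genes (red) reach far from the line at low naive levels, whereas only 5 of the 102 lower genes (blue), H19 the lowest, are 4-fold or more apart.

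The OAS, IFIT and Mx genes, which encode direct antiviral effectors, were the lists with the highest medians. All 8 members of the OAS family, whose products make 2'-5' oligoadenylates that activate the nuclease RNase L, were at least 2-fold higher, with a median difference of 4.27. Oasl2 was at 1.27 RPKM in naive cells against 165 RPKM in pretreated cells, a ratio of 130 (95% counting interval 118 to 145), and Oas1c, at 0.785 and 3.04 RPKM, was the family member least apart. All 5 measured members of the IFIT family, which bind viral RNA, were higher, with a median of 5.26. Ifit3 was at 1.38 and 167 RPKM (ratio 121, interval 107 to 137) and Ifit1 at 3.14 and 158 RPKM. Ifit2 was less far apart, at 2.59 and 14.4 RPKM. Reads of Ifit3 and its near-identical neighbour I830012O16Rik, at 0.886 and 81.9 RPKM, may be shared between them.

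The Mx GTPases and viperin were higher in all 4 measured members of their list, with a median of 3.54. Mx1 was at 0.186 and 13.3 RPKM, Mx2 at 0.164 and 12.02 RPKM and Rsad2, the gene of the enzyme viperin, at 0.302 and 13.3 RPKM. RefSeq classes Mx1 and Mx2 as transcribed pseudogenes in the C57BL/6 reference, so their transcripts do not stand for a working protein. Of 30 further effectors 24 were at least 2-fold higher and 0 at least 2-fold lower, with a median of 1.98. Bst2, which tethers budding virions to the cell surface, was at 20.4 and 458 RPKM (ratio 22.5, interval 21.3 to 23.7). Ifi44 was at 0.474 and 80.1 RPKM and Xaf1 at 1.98 and 84.3 RPKM. The IFITM genes, which block virus entry, differed among themselves. Ifitm3 was at 773 and 1818 RPKM, whereas Ifitm2, at 379 and 374 RPKM, was less than 2-fold apart. Ch25h, which makes the antiviral 25-hydroxycholesterol, was at 1.07 and 0.416 RPKM, and was 2-fold lower with a pseudocount of 0.1. With a pseudocount of 5, 18 of the 30 were at least 2-fold higher.

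The ISG15 pathway, which couples the ubiquitin-like protein Isg15 to other proteins, was higher in all 5 members, with a median of 3.03. Isg15 was at 0.608 and 82.7 RPKM, its activating enzyme Uba7 at 1.21 and 16.98 RPKM, and the protease Usp18, which removes Isg15 and also inhibits the interferon receptor, at 0.398 and 76.6 RPKM (ratio 192, interval 151 to 249). Of the interferon-inducible GTPases of the GBP and IRG families, which attack the vacuoles in which microbes live, 17 of 21 were at least 2-fold higher, with a median of 3.23. Iigp1 was at 1.43 and 64.1 RPKM and Gbp3 at 0.538 and 39.2 RPKM. The 4 others, Gbp1, Gbp5, Gbp8 and Gbp11, stayed under 1 RPKM in pretreated cells, Gbp5 at 0.025 and 0.305 RPKM. Gbp1 had 0 counts in the naive library. Levels of this family in pretreated cells thus ran from under 1 RPKM to 137 RPKM for Irgm1.

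Nucleic acid sensors were split between their members. Of 17, 10 were at least 2-fold higher and 0 lower, with a median of 2.62. The RNA helicases Ddx58 (RIG-I), at 8.57 and 63.4 RPKM, and Ifih1 (MDA5), at 1.49 and 19.5 RPKM, were higher, as was Zbp1, a sensor of Z-form nucleic acids, at 2.35 and 75.7 RPKM. The adaptor of these helicases, Mavs, was at 18.3 and 16.8 RPKM, the DNA sensor Mb21d1 (cGAS) at 3.71 and 4.61 RPKM and its partner Tmem173 (STING) at 25.6 and 34.2 RPKM, all less than 2-fold apart.

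Antigen presentation showed the same kind of split. Of 15 MHC class I genes 13 were at least 2-fold higher, with a median of 3.11. B2m was at 990.0 RPKM in naive cells against 6861 RPKM in pretreated cells, the highest level of any gene in the pretreated library. H2-K1 was at 9.94 and 325 RPKM. The class I genes share near-identical sequence, and their reads cannot be fully separated. Of 13 immunoproteasome and peptide-loading genes 9 were higher. Psmb8, a catalytic subunit that replaces a standard one in the immunoproteasome, was at 0.463 and 59.8 RPKM (ratio 129, interval 98.6 to 172), and the peptide transporter gene Tap1 at 7.01 and 66.9 RPKM. The general chaperones of peptide loading, Calr at 650 and 706 RPKM, Canx at 183 and 180 RPKM and Pdia3 at 404 and 444 RPKM, were not 2-fold apart. Nor were any of 14 subunits of the constitutive proteasome, whose median was 0.13. Of the MHC class II genes, which present peptides to helper T cells, Cd74 was the only one of 6 measured to reach 2-fold, at 1.90 and 9.30 RPKM, and with a pseudocount of 0.1 it was 4 of the 6.

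Within the signalling pathway, Stat2, Irf9 and Irf7 were higher, and the receptors, their kinases and several other DNA-binding factors were less than 2-fold apart. Stat2 was at 9.30 RPKM in naive cells against 97.2 RPKM in pretreated cells, and Irf9 at 11.6 and 69.5 RPKM. Both are subunits of ISGF3. Irf7, the factor that amplifies interferon induction, was at 2.22 and 180 RPKM (ratio 81.2, interval 73.2 to 90.2). By contrast Ifnar1 was at 17.7 and 13.9 RPKM, Ifnar2 at 63.7 and 77.2 RPKM, Jak1 at 41.6 and 44.1 RPKM and Tyk2 at 6.17 and 7.09 RPKM. Stat3, a STAT activated by other cytokines as well, was at 64.8 and 70.8 RPKM. The median over 13 receptor, kinase and STAT genes was 0.17. Irf1, an early interferon response gene, was at 18.5 and 27.9 RPKM and Irf3 at 14.3 and 11.1 RPKM. Of 6 measured IRF genes only Irf7 and Irf9 were 2-fold apart, with a median of 0.72.

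The feedback inhibitors were not higher as a group. Of 11, only Usp18 was at least 2-fold higher, and the median was 0.02. Socs1, an inhibitor of JAK kinases, was at 8.90 and 11.98 RPKM, Socs3 at 24.7 and 20.7 RPKM, and Socs2 at 17.4 and 8.60 RPKM. The interferon genes themselves gave almost no counts. None of the 10 listed passed the filter. Ifnb1 had 0 counts in the naive and 2 counts in the pretreated library, at 0.020 RPKM, and the genes Ifna1, Ifna4, Ifna5, Ifng, Ifnl2 and Ifnl3 had 0 counts in both.

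Secreted signals and NF-kB genes were closer to the naive level than the antiviral genes. Of 19 chemokine and cytokine genes 3 were at least 2-fold higher, with a median of 0.33, or 0.25 with genes of 0 counts set at 3 counts. With a pseudocount of 0.1, 7 were. Cxcl10, which attracts T cells, was at 0.631 and 11.7 RPKM (ratio 18.6, interval 14.5 to 24.2), Ccl2, which attracts monocytes, at 95.1 and 285 RPKM and Ccl5 at 6.92 and 19.1 RPKM. Cxcl5, which attracts neutrophils, was at 94.3 and 58.2 RPKM. Of 14 genes of the NF-kB pathway 0 were 2-fold apart in either direction, with Nfkbia at 53.8 and 40.7 RPKM. Of 11 complement genes 4 were at least 2-fold higher, among them C4b at 1.77 and 14.7 RPKM and Cfb at 1.63 and 12.7 RPKM. Cd59a, which protects cells from complement, was the 1 lower member, at 6.73 and 2.82 RPKM, though not with a pseudocount of 5. C4a and C4b are near-identical and may share reads.

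Families with both interferon-induced and other members had members on both sides of the 2-fold limit. Of 11 genes of the PARP family and its partner Dtx3l, which modify proteins with ADP-ribose or ubiquitin, 6 were at least 2-fold higher, with a median of 1.53. Parp14 was at 1.72 and 23.2 RPKM and Parp9, the binding partner of Dtx3l, at 5.52 and 40.6 RPKM, whereas the DNA repair enzyme gene Parp1 was at 22.8 and 22.6 RPKM. Of 18 genes of cell death and nuclear bodies 7 were higher, with a median of 0.66. Sp100, which encodes a nuclear body protein, was at 0.124 and 28.9 RPKM, and Mlkl, the executor of necroptosis, at 10.5 and 33.6 RPKM. Its upstream kinase genes Ripk1, at 13.4 and 14.1 RPKM, and Ripk3, at 17.6 and 24.1 RPKM, were less than 2-fold apart. Of 7 genes for inhibitory ligands 3 were higher, and Cd274 (PD-L1), a brake on T cells, was at 0.420 and 1.89 RPKM.

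**Figure D2:**
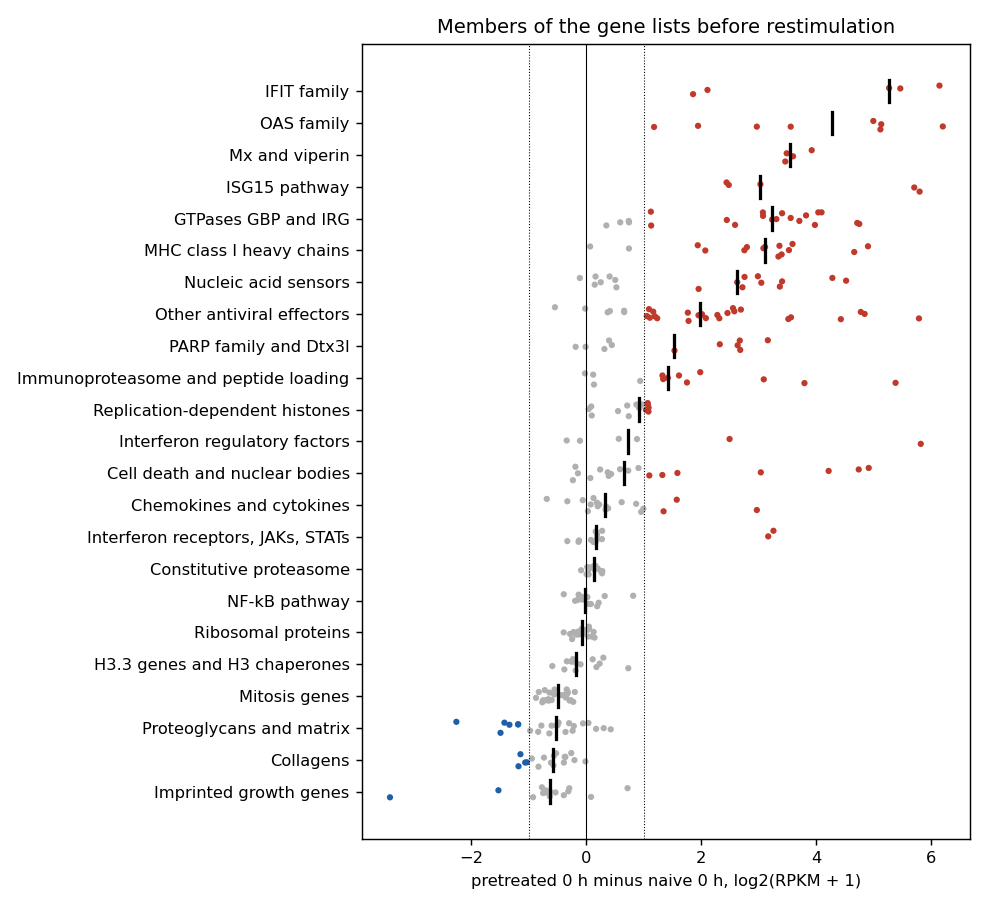
Each point is a gene of the list named on the y axis, placed by its difference between the pretreated and the naive 0 h library on the log2(RPKM + 1) scale, and black bars are list medians. Dotted lines mark a fold of 2, with higher genes in red and lower genes in blue. The IFIT and OAS families lie furthest to the right (medians 5.26 and 4.27), receptors, constitutive proteasome and NF-kB genes cluster at 0, and mitosis, matrix and imprinted genes lie to the left.

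Many of the higher genes had the letters of an ISRE in front of their start. RefSeq promoter windows (build GRCm38.p6, the mm10 assembly), from 250 bases before to 50 after the start, were matched to the kept transcript for 9210 of the genes, among them 202 of the 311 higher and 54 of the 102 lower ones. The ISRE core, GAAA followed by any 2 bases and GAAA again, on either strand, was in 63 of the 202 (31.2%), in 3 of the 54 lower genes (5.56%) and in 286 of all 9210 (3.11%). Among 49 genes that were at least 8-fold higher it was in 28 (57.1%). The longer form, the same core followed by CT, was in 27 of the 202 (13.4%), in 0 of the 54 and in 40 of all (0.434%). The STAT element GAS, TTCNNNGAA, was in 11.9% of the higher, 11.1% of the lower and 6.94% of all windows. The NF-kB motif, GGGA with any base and TTTCC after it, was in 0.99%, 0% and 0.358%, and the TATA box, TATAAA, in 21.3%, 14.8% and 7.31%. All of these motifs were sought on either strand. They are letter matches, not measured binding.

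The 250 bases before the start are shown for the 3 genes with the largest difference whose window held the core, and for the gene with the largest difference of all, Oasl2, whose window held none. They are printed 5′ to 3′ on the gene's own strand, with each match to the core, or to its reverse complement, in capitals. Ifit3 lies at chr19:34583279-34583528 on the plus strand, Isg15 at chr4:156200819-156201068 on the minus strand, I830012O16Rik at chr19:34607707-34607956 on the plus strand and Oasl2 at chr5:114896684-114896933 on the plus strand.
Ifit3: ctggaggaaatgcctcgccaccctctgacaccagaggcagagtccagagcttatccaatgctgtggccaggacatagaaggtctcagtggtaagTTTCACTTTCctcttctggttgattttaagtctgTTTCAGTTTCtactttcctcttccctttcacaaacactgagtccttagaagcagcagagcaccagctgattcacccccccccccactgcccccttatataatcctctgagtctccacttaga
Isg15: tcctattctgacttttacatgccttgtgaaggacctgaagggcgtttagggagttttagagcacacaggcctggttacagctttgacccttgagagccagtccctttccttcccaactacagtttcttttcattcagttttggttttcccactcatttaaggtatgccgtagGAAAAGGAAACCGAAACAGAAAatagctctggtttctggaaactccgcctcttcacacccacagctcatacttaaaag
I830012O16Rik: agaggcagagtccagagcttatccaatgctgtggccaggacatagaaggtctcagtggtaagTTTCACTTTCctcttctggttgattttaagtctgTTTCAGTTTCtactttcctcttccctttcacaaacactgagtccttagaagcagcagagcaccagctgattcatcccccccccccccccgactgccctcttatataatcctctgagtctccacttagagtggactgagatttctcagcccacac
Oasl2: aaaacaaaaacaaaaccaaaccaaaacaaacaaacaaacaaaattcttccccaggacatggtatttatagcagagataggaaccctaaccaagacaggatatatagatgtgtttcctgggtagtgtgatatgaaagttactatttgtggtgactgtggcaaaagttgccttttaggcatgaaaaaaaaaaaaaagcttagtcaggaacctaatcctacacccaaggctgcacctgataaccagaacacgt
Ifit3 and I830012O16Rik each held 2 matches to the reverse complement, the one farther from the start beginning 156 and 188 bases before it. These 2 windows share most of their sequence, with both matches in the shared stretch, so they are not separate examples. Near-identical genes were likewise each counted in the shares above. In Isg15, 3 matches overlapped in a single run that began 78 bases before the start. Oasl2 had 0 matches to the core in its window, and 1 to the TATA letters, as their reverse complement TTTATA.

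Of the 311 higher genes, 133 were in the lists used here and 135 of the others were protein-coding. The gene furthest apart outside the lists was Apod, which encodes the lipid carrier apolipoprotein D, at 5.65 RPKM in naive cells against 176 RPKM in pretreated cells (ratio 31.1, interval 29.2 to 33.2). In naive cells Apod was at 14.2, 45.0, 740.2 and 635 RPKM at 1, 2, 4 and 6 h. Its 0 h level in pretreated cells was thus between the naive 2 h and 4 h levels. Apol9a and Apol9b, of the apolipoprotein L family, were at 4.08 and 86.6 RPKM and at 2.76 and 74.0 RPKM, and as near-identical genes may share reads. Slfn2, of the Schlafen family, was at 0.552 and 24.5 RPKM. Mpeg1, known for its pore-forming product in macrophages, was at 0.015 RPKM in naive cells, from 6 counts, and at 8.04 RPKM in pretreated cells. Of the 10 macrophage markers, 6 had 0 counts in the naive and 4 in the pretreated library, with Ptprc, Emr1 and Tyrobp at 0 in both. Cd68, the only 1 of the 10 to pass the filter, was at 2.08 and 3.12 RPKM. Among listed genes of high abundance, Lgals3bp, a secreted glycoprotein gene, was at 54.6 and 654 RPKM, Ly6e, a membrane protein gene, at 193 and 964 RPKM, and Lgals9, which encodes galectin-9, at 119 and 421 RPKM.

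The genes lower in pretreated cells included several of the extracellular matrix and of growth control. H19, an imprinted noncoding RNA, was at 109.7 RPKM in the naive library against 9.39 RPKM in the pretreated library, the lowest difference of all genes at -3.41. Mir675, whose hairpin lies within H19 and shares its reads, was at 52.7 and 5.95 RPKM. Igfbp2, which binds insulin-like growth factors, was at 45.6 and 5.34 RPKM (ratio 0.117, interval 0.109 to 0.126), and Igf1, a growth factor, at 17.9 and 6.85 RPKM. Of 13 genes of the IGF axis 3 were at least 2-fold lower, and the receptor gene Igf1r, at 22.1 and 19.4 RPKM, was not. Of 15 imprinted growth genes 2 were, H19 and Peg10 (10.9 and 3.13 RPKM), and 13 of the 15 had a difference below 0, with a median of -0.63, against 0.00 over all genes. With a pseudocount of 5 only 1 gene of each of these lists was 2-fold lower.

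Collagens were lower throughout but mostly by less than 2-fold. All 17 measured collagen genes had a difference below 0, with a median of -0.57, and 4 were at least 2-fold lower. Col6a1, which encodes a chain of the beaded-filament collagen VI, was at 621 and 303 RPKM, and Col12a1, of a fibril-associated collagen, at 127 and 55.5 RPKM. The most abundant, Col1a1, was at 4973 and 3455 RPKM. Of 23 proteoglycan and matrix genes 6 were at least 2-fold lower and 0 higher, with a median of -0.52. Fmod, which encodes the collagen-binding proteoglycan fibromodulin, was at 27.9 and 5.03 RPKM. Pcolce2, an enhancer of procollagen processing, was at 19.4 and 6.25 RPKM and Prg4, the lubricant lubricin, at 27.6 and 9.66 RPKM. Fn1, at 2933 and 2384 RPKM, Pcolce, at 667 and 822 RPKM, and Thbs1, at 435 and 446 RPKM, were less than 2-fold apart. Outside the lists Itm2a was at 45.6 and 9.86 RPKM, and the microfibril genes Mfap5 and Mfap4 at 27.0 and 6.79 RPKM and at 7.56 and 1.44 RPKM. Of 14 matrix proteases and inhibitors 2 were at least 2-fold lower, Mmp9 at 4.88 and 0.707 RPKM and Mmp3 at 7.40 and 3.06 RPKM, with a list median of -0.39. With a pseudocount of 5 the number was 0. The 12 fibroblast markers, which include 3 collagens, had a median of -0.41 and summed to 11719 RPKM in naive cells and 8919 RPKM in pretreated ones, with 0 of them 2-fold apart. Col2a1, a cartilage collagen that stands here among the cartilage markers, was at 8.45 and 1.94 RPKM, a difference under 2-fold with a pseudocount of 5, whereas Sox9, the cartilage transcription factor, was at 32.2 and 33.3 RPKM. In bulk RNA, fewer cells of a kind and less RNA per cell cannot be told apart, which applies to these genes and to the cell cycle genes below.

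Contractile and immediate early genes had few members apart. Tagln, of smooth muscle actin filaments, was at 311 and 122 RPKM, and Actg2 at 49.96 and 18.7 RPKM, the 2 of 16 genes at least 2-fold lower. Egr1, a growth factor response gene, was at 111 and 49.8 RPKM and Egr3 at 7.77 and 2.78 RPKM, while Fos, at 3.38 and 1.76 RPKM, and Jun, at 36.8 and 41.5 RPKM, were less than 2-fold apart. With a pseudocount of 5, 1 of these 20 immediate early genes was 2-fold lower.

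**Figure D3:**
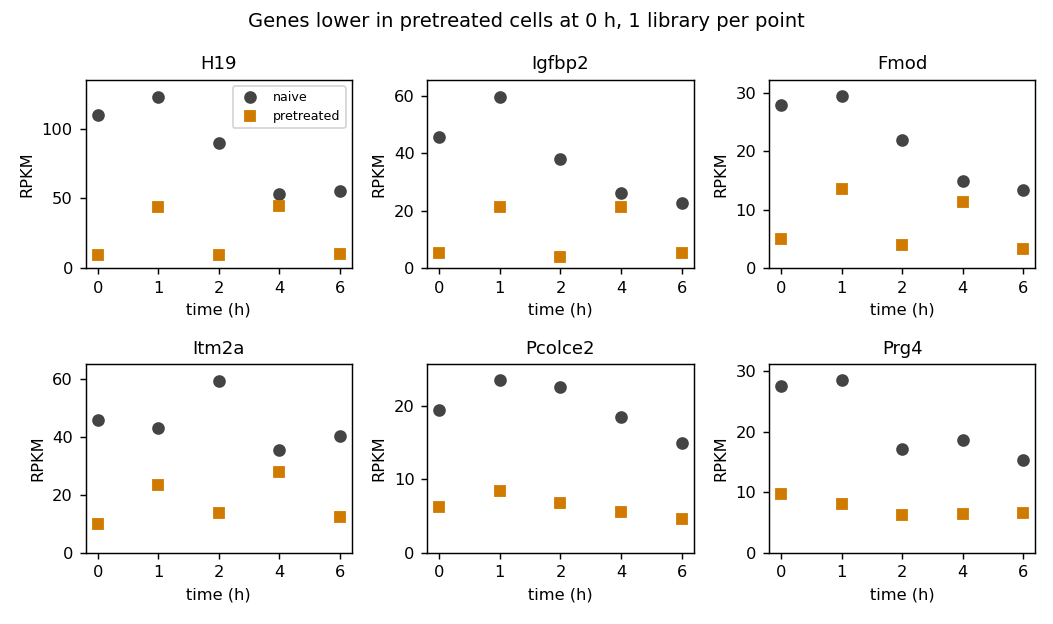
RPKM (y axis, from 0) of 6 genes lower in pretreated cells at 0 h, by time (x axis), with 1 library per point, naive in grey circles and pretreated in orange squares. H19, Igfbp2, Fmod and Itm2a are, as a ratio, nearer to naive in the 1 and 4 h pairs than in the other pairs. H19, Pcolce2 and Prg4 stay below naive in all 5 pairs.

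Mitosis genes were all slightly lower. All 24 had a difference below 0, with a median of -0.49, and 0 were 2-fold apart. Mki67, the proliferation marker Ki-67, was at 65.9 and 38.4 RPKM and Prc1, which bundles spindle microtubules, at 55.8 and 30.0 RPKM. Of 24 DNA replication genes 17 were below 0 and 7 above, with a median of -0.10, and 0 were 2-fold apart. Gins1, the furthest below, was at 13.2 and 7.11 RPKM, and Ccna2 at 129 and 86.6 RPKM. Mcm2, of the replicative helicase, was among the 7 above, at 41.1 and 45.6 RPKM. Genes of other cell functions lay near the median of all genes. The medians were -0.08 for 22 ribosomal protein genes, -0.01 for 18 oxidative phosphorylation genes, 0.05 for 11 heat shock genes, -0.04 for 16 p53 targets and -0.05 for 14 reference genes, and no member of these lists was 2-fold apart. Outside the ribosomal list, Rpl39, also a ribosomal protein gene, was 2-fold lower, at 131 and 58.9 RPKM. Actb was at 2971 and 2957 RPKM. All 16 sterol synthesis genes had a difference above 0, with a median of 0.39, and only Mvd, at 3.63 and 10.2 RPKM, was 2-fold apart, though not with a pseudocount of 5. In the list of amino acid stress and unfolded protein genes Ddit3, a stress transcription factor, was at 59.9 and 132 RPKM, the only one of 18 at least 2-fold higher.

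H3.3 genes and their chaperones, the subject of the knock-in, were not 2-fold apart in any of 14 members (median -0.18). H3f3a was at 84.5 and 71.8 RPKM. H3f3b, whose locus was replaced in these cells and whose value may not measure an intact gene, was at 14.9 and 11.2 RPKM. The H3.3 chaperone gene Hira was at 14.2 and 16.2 RPKM and Daxx, another such chaperone and an interferon-induced gene, at 17.8 and 30.1 RPKM. Of 12 genes for H3K36 methylation and transcript elongation 0 were 2-fold apart, with Setd2 at 21.7 and 20.7 RPKM.

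Structural noncoding RNAs and histone transcripts were higher in the pretreated 0 h library alongside the interferon genes. Rn45s, the ribosomal RNA precursor, was at 1749 and 6751 RPKM and took 1.01% of the counts of the naive and 3.90% of those of the pretreated library. Rmrp, the RNA of the nuclease MRP, was at 5.98 RPKM in naive cells against 76.0 RPKM in pretreated cells (ratio 12.7, interval 10.8 to 15.04). Rpph1 and Rprl3, RNAs of RNase P, were at 11.9 and 110.2 RPKM and at 3.47 and 48.5 RPKM. These levels did not last in the pretreated arm. Rmrp was at 30.6, 4.58, 6.42 and 3.57 RPKM in pretreated cells at 1, 2, 4 and 6 h, and at 21.9, 4.30, 6.69 and 3.63 RPKM in naive cells at these times. The 0 h value was thus the highest of the 10 libraries and the naive and pretreated values were close at 2, 4 and 6 h. The list of structural and nuclear RNAs held 8 measured members, and 4 of them (Rn45s, Rmrp, Rpph1 and the small Cajal body RNA Scarna2) were at least 2-fold higher. Malat1, at 108 and 113 RPKM, and Neat1, at 68.3 and 79.7 RPKM, both long nuclear RNAs, were less than 2-fold apart.

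**Figure D4:**
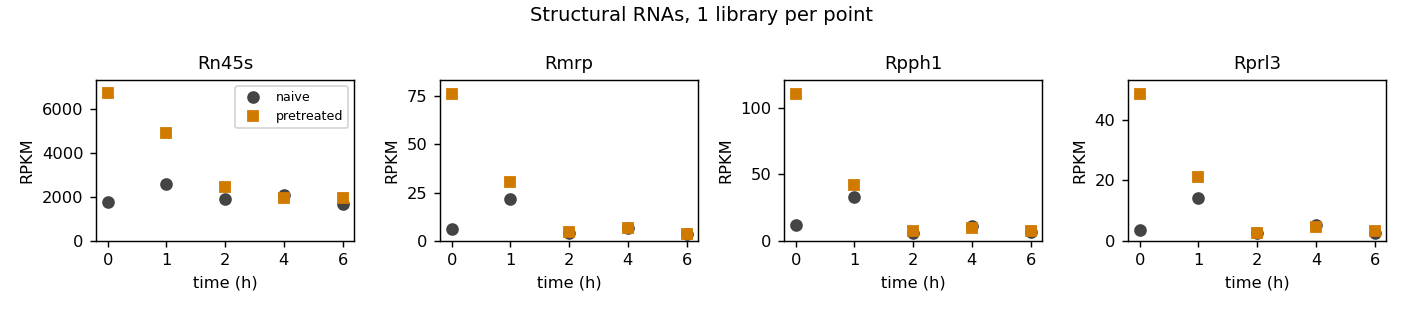
RPKM (y axis, from 0) of 4 structural RNAs by time (x axis), with 1 library per point, naive in grey circles and pretreated in orange squares. The pretreated 0 h library is the highest in all 4, at 76.0 RPKM for Rmrp against 5.98 RPKM in naive cells, and the arms lie closer together from 2 h on.

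All 15 measured replication-dependent histone genes of the list had a difference above 0, with a median of 0.91, and 5 were at least 2-fold higher. With a pseudocount of 5 none of them reached 2-fold (0 genes, median 0.43), and with 0.1 it was 8. Hist1h1c, a linker histone gene, was at 19.5 and 38.0 RPKM, and Hist1h4h at 1.92 and 5.001 RPKM. Their copies share sequence and reads. Over all 62 measured genes with a Hist symbol, a set chosen after the values were seen, 21 were at least 2-fold higher (33.9%) and 0 lower, and their summed level was 656 RPKM in the naive library against 866 RPKM in the pretreated 0 h library, against 367 to 734 RPKM in the other 8. Most of these RNAs lack a long poly(A) tail, and whether library preparation had a part in their differences was not tested.

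Rows for small RNAs (microRNA hairpins, small nucleolar and guide RNAs) were less certain. Of 178 that passed the filter 32 were at least 2-fold higher and 19 lower, but 31 of the 178 had 0 counts in the naive 0 h library, against 5 in the pretreated one. Of the 21 higher genes with 0 counts in naive cells, 19 were small RNAs. Without genes at 0 counts in either library, 290 genes were at least 2-fold higher and 98 lower. Mir147, chosen after its values were seen, had 0 counts in the naive and 29 in the pretreated library. Snhg9, the host gene of a small nucleolar RNA, was at 30.8 RPKM in the naive 0 h library, 8.24 RPKM in the pretreated one and 3.24 to 7.78 RPKM in the other 8, so that the naive 0 h library alone was high. It was the only 1 of 11 such host genes 2-fold apart, and their median was -0.11.

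The later pairs of libraries, none of which enter the 0 h difference, showed how long the genes remained apart. Over the 311 genes the medians at 0, 1, 2, 4 and 6 h were 1.70, 0.96, 0.80, 0.08 and -0.02. At least 2-fold higher at 1, 2, 4 and 6 h were 149, 122, 9 and 8 of them, against 188, 189, 29 and 19 of all 12168 genes. Irf7 was at 174, 201, 287 and 310 RPKM in pretreated and at 32.4, 72.2, 267 and 295 RPKM in naive cells at these times. The naive level was thus close to the pretreated one from 4 h on. Above naive at all 4 later times were 98 of the 311 (31.5%), against 13.2% of all genes. H2-K1 was one of them, at 428, 425, 665 and 560 RPKM in pretreated and 13.3, 37.7, 379 and 288 RPKM in naive cells.

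Over the 102 lower genes the medians at the same times were -1.21, -0.59, -0.96, -0.06 and -0.43. At least 2-fold lower were 19, 49, 4 and 17 of them at the later times, against 99, 116, 16 and 26 of all 12168 genes. Below naive at all 4 later times were 43 of the 102 (42.2%), against 11.2% of all genes. The order of the later libraries did not follow time in many of these genes. In 62 of the 102 (60.8%) the pretreated 1 h and 4 h libraries were both above the pretreated 2 h and 6 h libraries, against 14.4% of all genes, in a count that leaves out the 0 h library by which the 102 were chosen. H19 was at 43.7 and 44.4 RPKM in pretreated cells at 1 and 4 h and at 9.39, 9.19 and 9.78 RPKM at 0, 2 and 6 h, while the naive levels were 109.7, 122.8, 89.5, 53.4 and 55.2 RPKM in order of time. Gpnmb, a membrane glycoprotein gene among the 311 higher ones that was chosen after its values were seen, had the opposite order. It was at 33.4, 29.9 and 28.9 RPKM in pretreated cells at 0, 2 and 6 h and at 8.25 and 7.51 RPKM at 1 and 4 h, against 7.04 RPKM in naive cells at 0 h. What sets these 2 libraries apart was not tested.

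**Figure D5:**
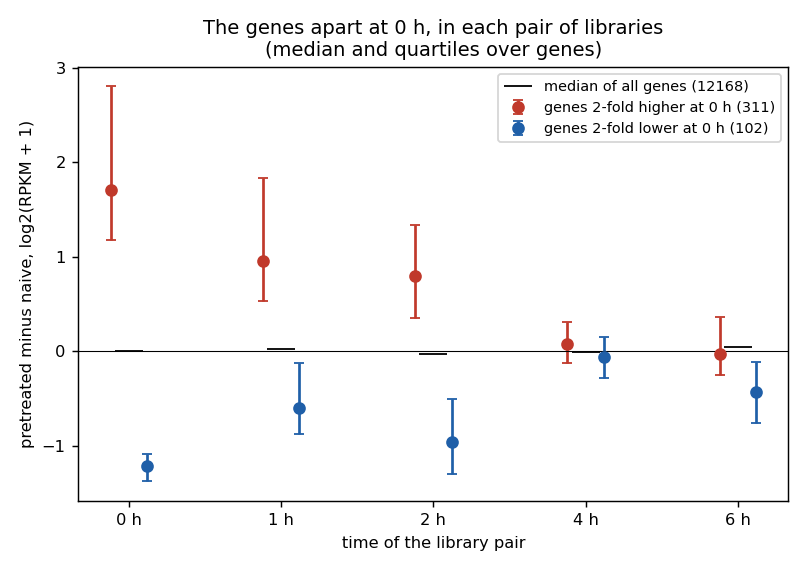
Difference between pretreated and naive libraries on the log2(RPKM + 1) scale (y axis) in each pair of libraries (x axis), for the 311 genes higher (red) and the 102 genes lower (blue) at 0 h, as median and quartiles over genes, with the median of all 12168 genes as black dashes. The direction at 0 h is fixed by the choice of genes. The higher genes reach the median of all genes by 4 h (0.08), whereas the lower genes are close to it at 4 h (-0.06) and below it again at 6 h (-0.43).

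A test of the arms in the 8 libraries at 1 to 6 h, with time as a block, called few genes. edgeR's quasi-likelihood test called 2 genes higher in pretreated cells (0.0164%) and 5 lower (0.0411%) at an adjusted p below 0.05, with 1815 genes at an unadjusted p below 0.05. DESeq2 called 280 (2.3%) and 445 (3.66%). Of the 102 genes lower at 0 h edgeR called 3 lower and DESeq2 47, and of the 311 higher genes edgeR called 0 higher and DESeq2 48. Time points stand in for replicates here, so these p-values measure spread between times and not between cultures. The 3 genes were Pcolce2 (log2 difference -1.69, SE 0.08, edgeR adjusted p = 0.00396), Prg4 (-1.53, SE 0.10, edgeR adjusted p = 0.0164) and U90926, a noncoding RNA (-2.54, SE 0.22, edgeR adjusted p = 0.0389), each lower in pretreated cells at 4 of 4 times. Pcolce2 was at 8.40, 6.70, 5.50 and 4.56 RPKM in pretreated and at 23.4, 22.5, 18.4 and 14.97 RPKM in naive cells. The values of the arms did not overlap. Leaving out 1 later pair of libraries reduced the number of the 102 genes called lower by edgeR to 1 without the 1 h pair, 0 without the 2 h pair, and 2 without the 4 h or the 6 h pair. H19 did not pass (-1.92, SE 0.49, edgeR adjusted p = 0.202). Of the 4 other genes called, Serpina3n, a protease inhibitor gene, was lower by the largest amount of the 7 (-3.45, SE 0.11, edgeR adjusted p = 0.000531), from 3.14 and 1.65 RPKM at 0 h, and Epas1, Ptgs2 and Col10a1 were likewise less than 2-fold apart before restimulation. With only the 2 and 6 h pairs edgeR called 0 genes, with 1068 at an unadjusted p below 0.05.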

How the data were processed

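Per the file headers, the deposited table holds, for each mm10 RefSeq transcript, a raw tag count and an RPKM value in each of 10 libraries. The authors computed the RPKM before deposit. Per the submitters' processing notes Bowtie, TopHat, Cufflinks 1.2.1 and mm10 were used, with no roles given. The sources used here do not state the counting tool, the use of strand or the treatment of multiply aligned reads, so overlapping genes cannot be separated. In 10639 transcripts above 5 RPKM everywhere, count divided by RPKM deviated from 1 factor per library by at most 0.000167 (log2).

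The table had 30646 transcripts. The 15 with no gene name held 0.0171% and 0.0173% of the counts of the 0 h libraries and were left out. For 4306 symbols with several transcripts the one with the highest mean RPKM was kept. Log2 differences were taken on log2(RPKM + 1). Ratios have exact Clopper-Pearson 95% intervals, which cover counting error only. The later libraries were tested on counts with edgeR 4.0.16 (TMM scaling, Benjamini-Hochberg over 12168 genes), with DESeq2 1.42.0 as an alternative. The edgeR test was tried beforehand on simulated counts with no change over time and the same dispersion for every gene. That trial does not show how the test behaves where levels change over time. Nothing in the labels says that libraries came from separate cultures. Pseudocount, filter, scaling, transcript choice and fold were varied.

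The genes, the 50 lists (8 of them markers) and the tests were chosen with earlier results of these data known. Named genes were the 15 largest differences each way, the 10 largest changes in RPKM each way, the 10 largest each way outside the lists, and members of the lists. Promoter windows are RefSeq's for GRCm38.p6, matched by gene ID within 500 bases of the kept start.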

Additional observations from a re-analysis of the deposited data

How the results depend on the processing

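The pseudocount and the fold set the counts. At 0 h, 311 genes were higher and 102 lower. With a pseudocount of 0.1 these were 512 and 208, with 5 they were 160 and 28, at a fold of 1.5 they were 739 and 476, and at a fold of 4 they were 131 and 5. With no filter, a floor of 5 RPKM in a 0 h library, TMM or DESeq2 scaling, or transcripts summed per symbol, both counts stayed within 1.5 times, at 222 to 326 and 74 to 121, as they did (290 and 98) without genes at 0 counts, an alternative chosen after seeing the data. All 113 named genes that were 2-fold apart kept their direction under pseudocounts 0.1 and 5, TMM and DESeq2 scaling, and 96 of them stayed 2-fold apart with a pseudocount of 5. For 1 to 6 h, edgeR called 7 genes, DESeq2 725, edgeR without a filter 49, without the time block 2, with 2 and 6 h only 0, and with 1 and 4 h only, chosen after seeing the data, 1. Leaving out each later pair in turn gave 1 to 3, the lowest without the 2 h pair. The cause of these changes was not tested. No paired analysis was possible because, at 0 h, each group had 1 library and the labels give no replicate numbers, while the later arms were paired by time in the edgeR fit. Below 1 RPKM, naive 0 h values are limited by that library's excess of genes with 0 counts.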
